A study of Danio rerio with 16 samples.

Results

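The hatching gland transcripts of zebrafish embryos were represented by 5 genes, the hatching enzyme genes he1.1, he1.2 and he1.3, the cathepsin L gene ctslb and the transcription factor gene klf17. They were chosen by their symbols, and all 5 were present among the 36109 genes of the count table and passed the filter on low counts, which left 24300 genes for testing. RNA of whole zebrafish was sequenced in bulk in 16 libraries, 4 in each of 4 groups. The groups were mut48 and sib48 at 48 hours post fertilisation (hpf) and mut24 and sib24 at 24 hpf. The mutants (mut) carried knockouts of both lipf, which encodes a gastric lipase, and pla2g15, which encodes a lysosomal phospholipase, and the wild-type embryos (sib) carried neither. The sample titles name no treatment. The labels call the tissue body while the design speaks of whole embryos, and they do not say how many embryos made a library, whether libraries came from separate clutches, or whether embryos had been taken out of the chorion or had hatched. The p-values thus rest on the spread among these libraries alone, and that spread may be technical.

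The hatching gland is a transient gland that forms from the prechordal plate and spreads over the front of the yolk. Its cells fill with granules of astacin metalloproteases, the hatching enzymes, and release them to soften and dissolve the chorion, after which the cells are lost. Zebrafish usually hatch on the third day of development, so both sampling times fell before or around the start of hatching. In bulk RNA, fewer gland cells and less RNA per gland cell cannot be told apart, and stored or released enzyme was not measured.

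In units of 1e6 counts, the libraries held 35.9 to 50.5. The knockouts were checked by the transcripts of the targeted genes, which a knockout need not lower. The lipf transcript averaged 2.41 ± 0.431 CPM (counts per 1e6 counts of a library, scaled by TMM factors) in mut48 and 22.8 ± 6.62 CPM in sib48 (SD, n = 4 each), and 1.51 ± 0.723 CPM in mut24 and 13.99 ± 7.62 CPM in sib24. The difference was called at both ages (edgeR adjusted p = 4.31e-05 at 48 hpf and 0.00119 at 24 hpf), whereas pla2g15 was not called (log2 fold change -0.50, adjusted p = 0.468 at 48 hpf, and -0.40, adjusted p = 0.710 at 24 hpf, by edgeR). A gene was called where its Benjamini-Hochberg adjusted p over all tested genes was under 0.05.

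In a RefSeq gene table of zebrafish assembly GRCz12tu, he1.1, he1.2 and he1.3 lay next to each other on chromosome 22. The klf17 gene lay on chromosome 2, and pla2g15 on chromosome 25. The ctslb gene lay on chromosome 12, the chromosome of lipf, with 29 genes between them, 25 of them protein-coding. The counts were made on assembly GRCz11, so no coordinates are given.

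All 5 transcripts were less abundant at 48 than at 24 hpf in both genotypes, and by very different amounts. In mutants, he1.3 was 136-fold lower and ctslb 91.2-fold lower at 48 hpf, while he1.1, he1.2 and klf17 were 4.40-fold to 5.06-fold lower. None of the 5 differed between mutants and wild type at either age by the test, with wide intervals for the enzymes. The libraries of 1 group differed widely in he1.1, he1.2 and ctslb, and at 24 hpf these transcripts went up and down together from library to library. At 48 hpf he1.2 still followed he1.1 closely (Pearson r = 0.999), and ctslb followed it less closely (r = 0.778). Reads that match both he1.1 and he1.2, if any, leave the close relation of these genes uncertain.

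The he1.1 gene encodes an astacin protease that acts on the chorion. Its transcript stood at 258, 99.8, 93.3 and 199 CPM in mut48 replicates 1 to 4 and at 86.2, 132, 289 and 101 CPM in those of sib48. At 24 hpf it stood at 708, 465, 1242 and 720.1 CPM in mut24 and at 44.9, 810.1, 296 and 649 CPM in sib24. The genotypes overlapped at both ages, and replicate 1 of sib24 was the lowest of all 16 libraries, below every library of 48 hpf.

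The neighbouring gene he1.2 encodes a closely related enzyme. Its values were 37.7, 15.0, 13.3 and 28.2 CPM in mut48 and 12.6, 18.7, 43.5 and 14.5 CPM in sib48. They were 108, 69.5, 186 and 112 CPM in mut24 and 6.38, 123, 47.3 and 95.5 CPM in sib24. Again the genotypes overlapped, and the highest and lowest libraries of each group were the same as for he1.1 in mut48, sib48, mut24 and sib24.

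The third gene of the row, he1.3, was well detected at 24 hpf and close to its limit of detection at 48 hpf. It had 0.663, 0.317, 0.339 and 0.140 CPM in mut48 and 0.194, 0.327, 0.177 and 0.162 CPM in sib48, from 6 to 29 counts in a library. At 24 hpf it had 72.5, 14.5, 64.9 and 48.0 CPM in mut24 and 14.7, 54.0, 32.6 and 21.7 CPM in sib24. Every library of 48 hpf lay far below every library of 24 hpf, and the genotypes overlapped at each age.

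The ctslb transcript encodes a cathepsin L, a cysteine protease, and is a classical marker of the gland. It had 5.44, 1.74, 1.12 and 1.63 CPM in mut48 and 0.823, 1.59, 2.35 and 1.57 CPM in sib48, from 34 to 238 counts in a library. It had 195, 133, 345 and 231 CPM in mut24 and 13.9, 212, 81.1 and 192 CPM in sib24. The ages did not overlap in either genotype, the genotypes overlapped at both ages, and replicate 1 of mut48 stood above the other 7 libraries of 48 hpf.

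The Krüppel-like factor gene klf17 is required for the gland to form and is also known in primitive red cells. It spanned 7.32-fold over the 16 libraries, the narrowest range of the 5, with 8.87, 7.48, 7.26 and 7.15 CPM in mut48 and 4.94, 6.10, 8.18 and 6.44 CPM in sib48. At 24 hpf it had 36.2, 30.6, 35.4 and 33.3 CPM in mut24 and 22.3, 31.8, 29.6 and 35.2 CPM in sib24. The ages were well apart, and the genotypes overlapped at both.

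**Figure D1:**
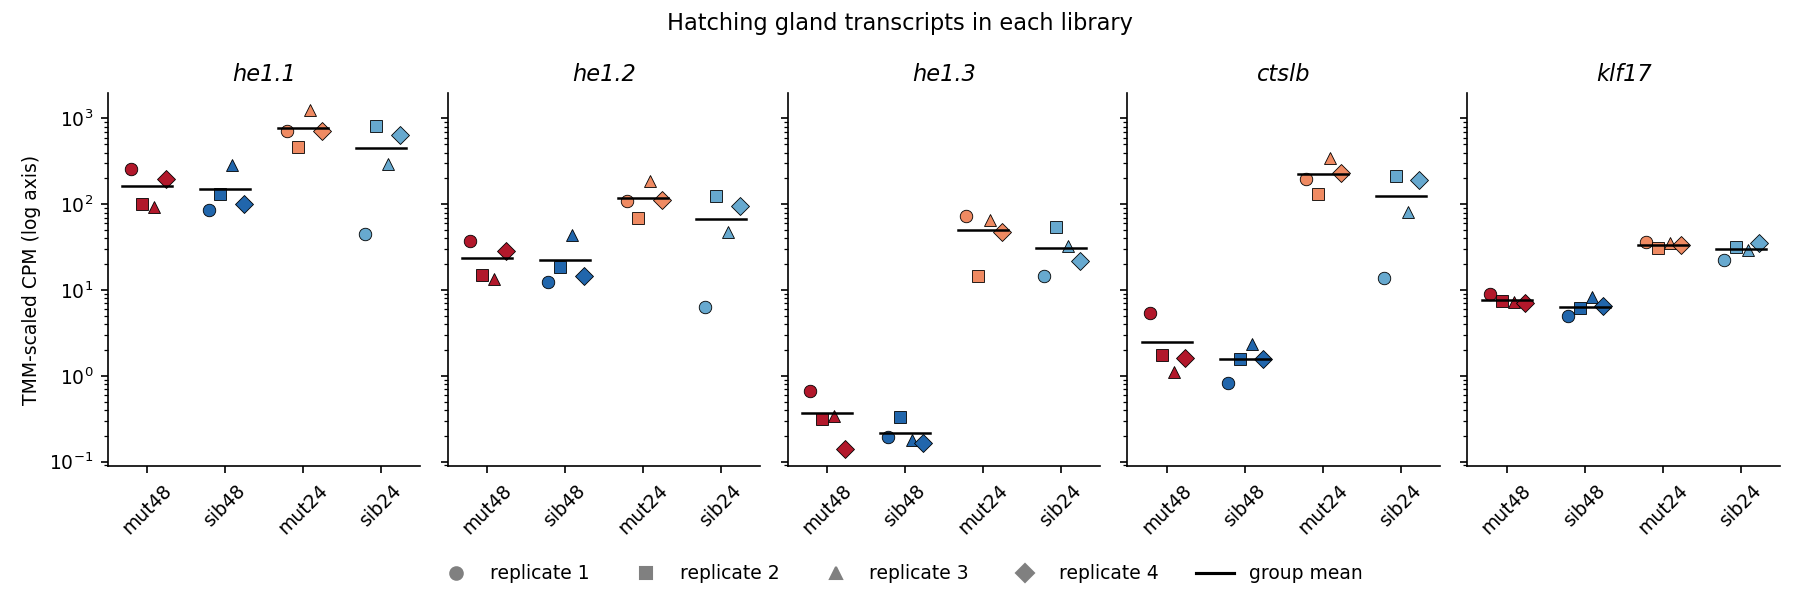
TMM-scaled CPM (log axis) of the 5 hatching gland transcripts in each of the 16 libraries, 4 per group, in the order mut48, sib48, mut24 and sib24, with a bar at the group mean. For he1.3 every library of 48 hpf lies far below those of 24 hpf, while for he1.1 the lowest point, at 44.9 CPM, belongs to sib24. For ctslb the ages do not overlap, but mut48 replicate 1, at 5.44 CPM, comes near sib24 replicate 1, at 13.9 CPM.

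By group means, each of the 5 transcripts was highest in mut24, then in sib24, then in mut48 and lowest in sib48. For he1.1 the means were 162 ± 79.7 CPM in mut48, 152 ± 93.3 CPM in sib48, 783 ± 327 CPM in mut24 and 450.1 ± 345 CPM in sib24 (SD, n = 4 each). For klf17 they were 7.69 ± 0.801, 6.42 ± 1.34, 33.9 ± 2.49 and 29.7 ± 5.44 CPM in the same groups. Within an age, the neighbours of this order overlapped for all 5 transcripts and were not called. The step between ages was called in each genotype.

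Between ages, all 5 transcripts fell in both genotypes by the edgeR quasi-likelihood test. Among all tested genes, 30.4% were called lower at 48 hpf in mutants and 29.2% in wild type, so a call in this direction was common. For he1.1 the log2 fold change was -2.27 in mut48 against mut24 (95% interval -3.57 to -0.97, adjusted p = 0.00365 by edgeR) and -1.57 in sib48 against sib24 (-2.84 to -0.29, adjusted p = 0.0312). For he1.2 it was -2.34 in mutants (-3.64 to -1.04, edgeR adjusted p = 0.00298) and -1.61 in wild type (-2.88 to -0.33, adjusted p = 0.0279).

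The calls for he1.1 and he1.2 in wild type depended on single libraries. In sib48 and sib24 the libraries overlapped for both genes, and both calls were lost without sib24 replicate 2 (edgeR adjusted p = 0.127 and 0.117), sib24 replicate 4 (0.0816 and 0.0707), or sib48 replicate 1 (0.0809 and 0.0739), 2 (0.0646 and 0.0606) or 4 (0.0809 and 0.0744). Both were also lost in a fit of the 2 groups alone (edgeR adjusted p = 0.0556 for he1.1 and 0.0516 for he1.2). Without sib24 replicate 1, the fall of he1.1 in wild type was -1.94 on the log2 scale (edgeR adjusted p = 0.00142).

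For he1.3, ctslb and klf17 the fall was called under each alternative run, in both genotypes, where the row was fitted on its own. The log2 fold change of he1.3 was -7.09 in mut48 against mut24 (95% interval -8.30 to -5.87, edgeR adjusted p = 5.64e-09) and -7.13 in sib48 against sib24 (-8.41 to -5.85, adjusted p = 1.25e-08). That of ctslb was -6.51 in mutants (-8.04 to -4.98, edgeR adjusted p = 3.49e-07) and -6.29 in wild type (-7.84 to -4.74, adjusted p = 6.97e-07). That of klf17 was -2.14 in mutants (-2.45 to -1.82, edgeR adjusted p = 8.19e-10) and -2.21 in wild type (-2.53 to -1.89, adjusted p = 6.90e-10).

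Ranked from the lowest log2 fold change among the 24300 tested genes, he1.3 was number 7 and ctslb number 10 in mutants, and numbers 12 and 19 in wild type. The ranks of he1.1, he1.2 and klf17 were 520, 477 and 604 in mutants and 1143, 1071 and 460 in wild type. The 95% intervals of he1.3 and ctslb did not meet those of he1.1, he1.2 and klf17 in either genotype, and the difference between genes was not tested further. All 5 transcripts had ages that did not overlap in mutants, which was so, in this direction, for 27.9% of tested genes. In wild type 3 of 5 did, against 27.2% of tested genes.

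**Figure D2:**
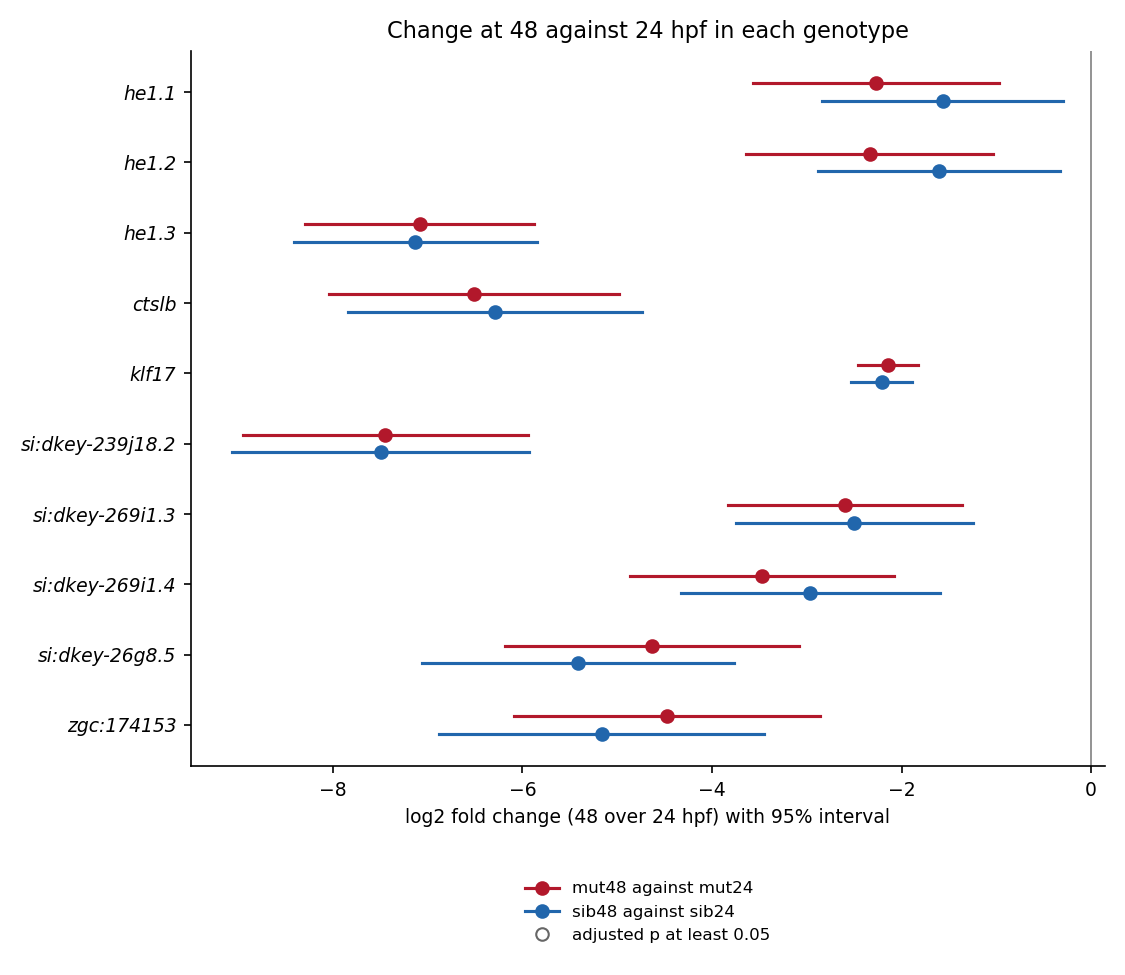
Log2 fold change at 48 against 24 hpf in mutants (mut48 against mut24) and wild type (sib48 against sib24) for the 5 members and 5 other cathepsin L-like genes, with 95% intervals; filled points have an adjusted p under 0.05. The members he1.3 and ctslb lie between -7.13 and -6.29, and he1.1, he1.2 and klf17 between -2.34 and -1.57.

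The 3 hatching enzyme genes were then compared within libraries, by ratios of counts, which do not depend on library scaling. The counts are not per length, so a ratio is compared between libraries and says nothing of the relative abundance of the 2 transcripts. The ratio of he1.1 to he1.2 counts stayed between 6.26 and 7.05 in all 16 libraries, while he1.1 itself spanned 27.7-fold in CPM. Its means were 6.89 ± 0.171 in mut48, 6.88 ± 0.174 in sib48, 6.58 ± 0.124 in mut24 and 6.66 ± 0.328 in sib24 (SD, n = 4 each). The sources used here do not say how reads with several matches were counted, and if he1.1 and he1.2 share sequence, their separate values are uncertain.

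In contrast, the ratio of he1.1 to he1.3 counts ran from 275 to 1421 in mut48 and from 403 to 1630 in sib48, but from 9.76 to 31.98 in mut24 and from 3.05 to 29.9 in sib24. The ages did not overlap, so the makeup of the he1 reads differed between ages. Of the reads counted on the 3 genes, he1.3 took 0.220 ± 0.112% in mut48 and 0.152 ± 0.0731% in sib48, and 5.15 ± 2.32% in mut24 and 9.82 ± 8.67% in sib24 (SD, n = 4 each). At 48 hpf nearly all of the reads came from he1.1 and he1.2, with he1.1 at 87.1 ± 0.335% in mut48 and 87.2 ± 0.235% in sib48.

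The ratio of he1.1 to ctslb showed the same shift with age. It lay between 47.3 and 122 in mut48 and between 64.4 and 123 in sib48, against 3.11 to 3.63 in mut24 and 3.22 to 3.82 in sib24. At 24 hpf it was thus nearly constant across libraries that differed widely in he1.1, including sib24 replicate 1. Together the 3 he1 genes took 0.0196 ± 0.00955% of the counts of a library in mut48, 0.0178 ± 0.0113% in sib48, 0.0918 ± 0.0374% in mut24 and 0.0533 ± 0.0398% in sib24 (SD, n = 4 each).

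Between genotypes, none of the 5 transcripts was called at either age. At 48 hpf 7.43% of all tested genes were called in either direction, and at 24 hpf 0.831% were. All 5 transcripts overlapped between genotypes at both ages, while 14.2% of tested genes at 48 hpf and 8.52% at 24 hpf did not. None of the 5 had an unadjusted p under 0.05 in edgeR at either age, and DESeq2 called none of them. At 48 hpf the log2 fold change in mut48 against sib48 was 0.09 for he1.1 (95% interval -1.15 to 1.34, edgeR adjusted p = 0.954) and 0.07 for he1.2 (-1.19 to 1.33, adjusted p = 0.964). It was 0.75 for he1.3 (-0.97 to 2.46, edgeR adjusted p = 0.665), 0.64 for ctslb (-0.88 to 2.16, adjusted p = 0.679) and 0.26 for klf17 (-0.05 to 0.57, adjusted p = 0.333).

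At 24 hpf the estimates in mut24 against sib24 were positive for all 5 members but within the spread of the libraries. The log2 fold change was 0.80 for he1.1 (95% interval -0.45 to 2.05, edgeR adjusted p = 0.605), 0.80 for he1.2 (-0.44 to 2.05, adjusted p = 0.601) and 0.70 for he1.3 (-0.14 to 1.54, adjusted p = 0.473). It was 0.86 for ctslb (-0.31 to 2.03, edgeR adjusted p = 0.536) and 0.19 for klf17 (-0.11 to 0.49, adjusted p = 0.613). For he1.1 the interval left room for a mutant level from 0.733 to 4.13 times that of wild type, whereas for klf17 it spanned 0.925 to 1.40 times.

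The 24 hpf estimates moved with single libraries of both genotypes. The next lowest library of sib24 stood 6.60-fold above sib24 replicate 1 for he1.1, 7.41-fold for he1.2 and 5.82-fold for ctslb, but 1.47-fold for he1.3 and 1.33-fold for klf17. Without that library the log2 fold changes in mut24 against sib24 were 0.42 for he1.1, 0.42 for he1.2, 0.47 for he1.3, 0.49 for ctslb and 0.07 for klf17. Without mut24 replicate 3 they were 0.49 for he1.1, 0.50 for he1.2, 0.55 for he1.3 and 0.58 for ctslb, and without mut24 replicate 1 that of he1.3 was 0.47. Without sib24 replicate 2 the estimate for he1.1 was 1.25 (edgeR adjusted p = 0.424). No genotype difference of a member was called under any of these settings.

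The interaction of genotype and age, which asks whether the genotype difference at 48 hpf departed from that at 24 hpf, was called for none of the 5 by edgeR or DESeq2, against 1% of all tested genes by edgeR, and none was under 0.05 before adjustment. Its log2 estimate was -0.71 for he1.1 (95% interval -2.46 to 1.05, edgeR adjusted p = 0.736), -0.73 for he1.2 (-2.50 to 1.04, adjusted p = 0.727) and 0.05 for he1.3 (-1.60 to 1.70, adjusted p = 0.988). It was -0.22 for ctslb (-2.15 to 1.70, edgeR adjusted p = 0.939) and 0.07 for klf17 (-0.36 to 0.51, adjusted p = 0.909). The intervals of the 4 protease genes were wide, and each included 0.

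**Figure D3:**
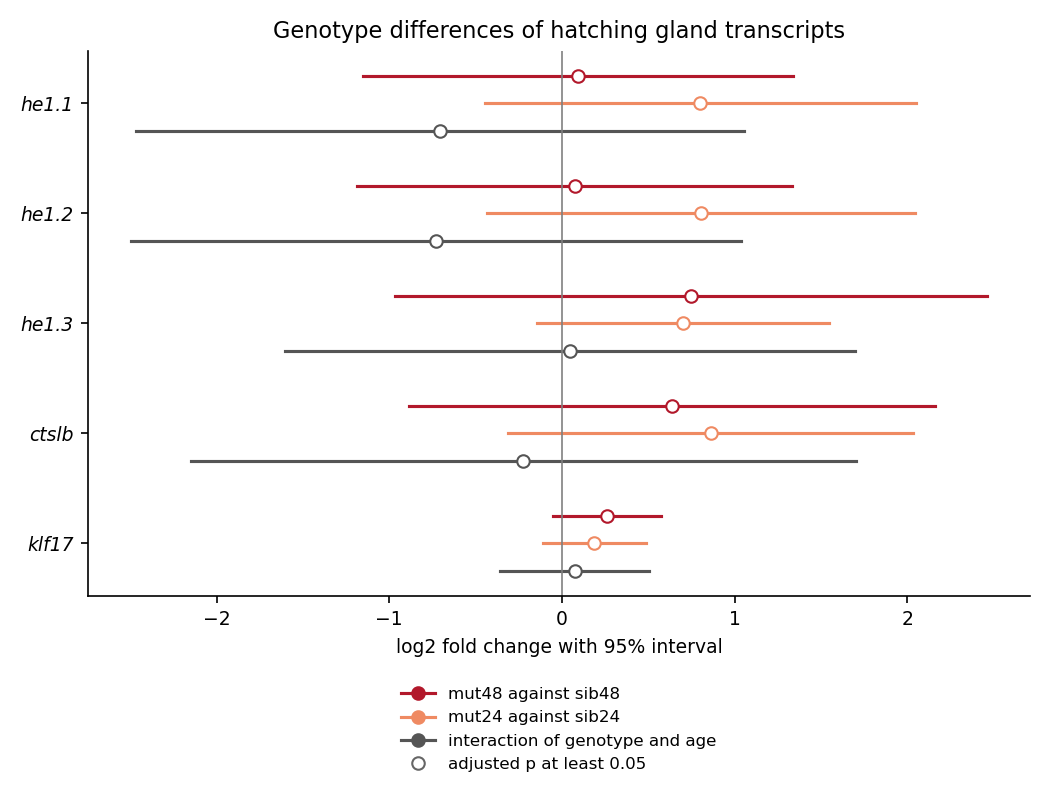
Log2 fold change between mutants and wild type at 48 hpf (mut48 against sib48) and 24 hpf (mut24 against sib24), and their interaction, for the 5 hatching gland transcripts, with 95% intervals; open points have an adjusted p of at least 0.05. Each interval includes 0, and those of klf17 are the narrowest.

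Values of 2 measures of the libraries were set beside these results. The position of a library on the path from wild type at 24 hpf (0) to wild type at 48 hpf (1), computed over tested genes without the members, was 0.941 ± 0.0385 in mut48 and 0.970 ± 0.0240 in sib48 (SD, n = 4 each, exact permutation test, two-sided p = 0.257). It was 0.00975 ± 0.0222 in mut24 and 0.0398 ± 0.0587 in sib24 (exact permutation p = 0.429). Replicate 1 of sib24, with the lowest he1.1, was at 0.0168, inside the range of the other 24 hpf libraries.

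The hatching gland lies on the yolk, and libraries of 24 hpf differed in genes of the yolk syncytial layer. The mean log2 CPM of 17 such genes, the apolipoprotein genes among them, was 5.94 ± 0.119 in mut48 and 6.60 ± 0.275 in sib48 (SD, n = 4 each). This difference reached the smallest p that 70 assignments allow (exact permutation test, two-sided p = 0.0286, 0.114 adjusted over 4 tests). At 24 hpf it was 4.36 ± 2.47 in mut24 and 4.83 ± 1.77 in sib24 (exact permutation p = 0.743). The 4 lowest libraries in this measure were mut24 replicates 4 and 2, at 2.12 and 2.35, and sib24 replicates 4 and 1, at 2.696 and 4.20. Their he1.1 levels were 720.1 and 465 CPM in mut24 and 649 and 44.9 CPM in sib24. Among these 4 were the library lowest in he1.1 of each genotype at 24 hpf, and also mut24 replicate 4 and sib24 replicate 4. In he1.1 those replicates were exceeded in their groups only by mut24 replicate 3 and sib24 replicate 2. The next lowest of 24 hpf after sib24 replicate 1 was sib24 replicate 3, at 296 CPM, which was not among the 4. The part of yolk content in the member values was not tested. In the fits with yolk level as a covariate and without the 4 libraries lowest in it, no genotype difference of a member was called. None was called in the main fit either, so these fits say nothing on that part.

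How closely the members moved together was measured within each age over 8 libraries, in 8 relations with he1.1 on the log2 CPM scale. The libraries share the tissue and the scaling, and the 2 genotypes are pooled. If he1.1 and he1.2 share reads, their relation at either age may come from how those reads were counted, which was not tested. At 24 hpf, he1.2 followed he1.1 with Pearson r = 0.9996 (permutation p = 2.48e-05, adjusted 0.000198; Spearman rho = 1, adjusted p = 0.000397). The ctslb transcript followed it with r = 0.998 (permutation p = 0.000149, adjusted 0.000397; rho = 0.976, adjusted p = 0.00106), and r was 0.976 without the 2 libraries farthest from the median of he1.1, sib24 replicates 1 and 3.

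For klf17 at 24 hpf r was 0.951 (permutation p = 0.00357, adjusted 0.00714) with rho = 0.714 (adjusted p = 0.0768), and 0.534 without those 2 libraries, so this relation rests on them. For he1.3 r was 0.681 (permutation p = 0.0284, adjusted 0.0379) with rho = 0.738 (adjusted p = 0.0733), and 0.767 without them. The hatching enzyme he1.3 thus followed its neighbours less closely in value than ctslb did on another chromosome, a difference that was not tested.

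At 48 hpf the relation of he1.2 to he1.1 was again close, with r = 0.999 (permutation p = 4.96e-05, adjusted 0.000198; rho = 0.976, adjusted p = 0.00106). For ctslb r was 0.778 (permutation p = 0.00761, adjusted 0.0122; rho = 0.833, adjusted p = 0.0308) and 0.556 without sib48 replicate 3 and mut48 replicate 1. For klf17 r was 0.699 (permutation p = 0.0506, adjusted 0.0578; rho = 0.595, adjusted p = 0.151). For he1.3 r was 0.127 (permutation p = 0.775; rho = -0.119, p = 0.793), at 6 to 29 counts in a library.

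**Figure D4:**
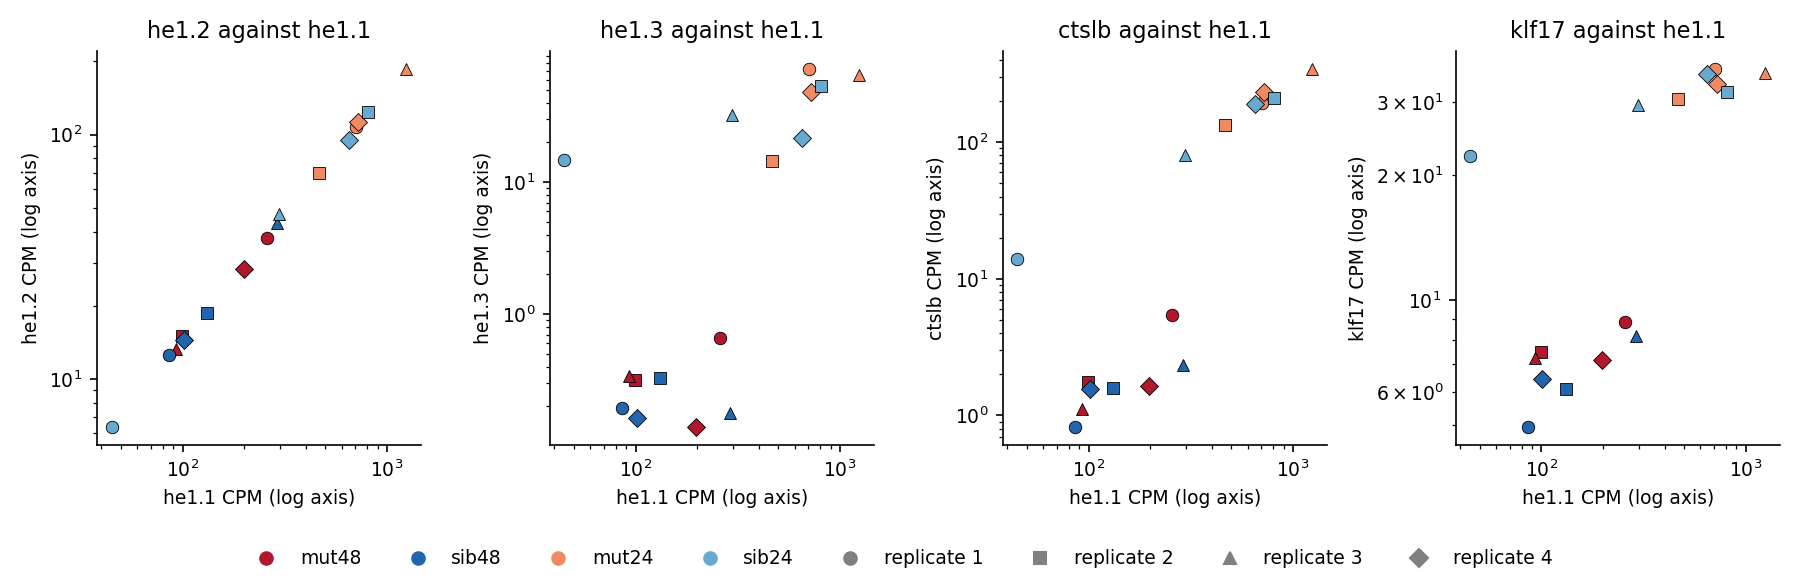
Each of he1.2, he1.3, ctslb and klf17 plotted against he1.1 in the 16 libraries, as TMM-scaled CPM on log axes; colour gives the group and shape the replicate number. The he1.2 points form 1 line across both ages, the ctslb points form separate bands for 24 and 48 hpf, and sib24 replicate 1 stands alone at the left at 44.9 CPM of he1.1.

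The genes whose pattern over the 16 libraries was most like that of the members were sought among 19525 tested genes, by Pearson r of log2 CPM as a description. The closest to ctslb was si:dkey-239j18.2, with r = 0.993, and the closest to the summed he1 genes were si:dkey-239j18.3 at 0.989, si:dkey-269i1.4 at 0.972 and si:dkey-269i1.3 at 0.964. The other 2 for ctslb were si:dkey-26g8.5 at 0.979 and zgc:101663 at 0.973. For klf17 they were tdgf1, a Nodal co-receptor, and dlgap1b, both at 0.988, and cdx4, a caudal homeobox factor of the posterior body, at 0.985.

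After the group means were subtracted, the highest mean r with the he1 genes, ctslb and klf17 belonged to si:dkey-269i1.3 (0.925), si:dkey-269i1.4 (0.920), si:dkey-26g8.5 (0.918), si:dkey-239j18.3 (0.908) and wu:fa26c03 (0.907). These values describe variation among the libraries of a group, and roles are not known here for si:dkey-239j18.3 and wu:fa26c03. They include sib24 replicate 1, which was low in si:dkey-269i1.3, si:dkey-269i1.4 and si:dkey-26g8.5, and were not recomputed without it. For si:dkey-269i1.3, si:dkey-269i1.4 and si:dkey-26g8.5, r with he1.1 was 0.994 to 0.999 at 24 hpf and 0.760 to 0.883 at 48 hpf. In the RefSeq table si:dkey-239j18.3 and wu:fa26c03 lay between ctslb and lipf on chromosome 12, as did si:dkey-269i1.3 and si:dkey-269i1.4. Whether that position bears on their values was not tested. Among the genes most like klf17, cdx4 was called higher in mut48, at 1.42 ± 0.404 CPM, than in sib48, at 0.673 ± 0.0892 CPM (SD, n = 4 each, log2 fold change 1.07, edgeR adjusted p = 0.00140).

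Several of these genes belong to a group of cathepsin L-like genes on the chromosome of ctslb. The RefSeq table listed 8 such genes there with ctslb, of which 6 were among the genes tested. The 5 besides ctslb were chosen after their values were seen, and reads of near-identical copies may have been split among them. All 5 were called lower at 48 hpf in both genotypes. Of all tested genes, 30.4% were called lower in mutants and 29.2% in wild type, so such a call was common. None of the 5 was called between genotypes by edgeR or DESeq2. By edgeR, 7.43% of all tested genes were called between genotypes at 48 hpf and 0.831% at 24 hpf. Of the 5, 1 at 48 hpf and 0 at 24 hpf had an unadjusted p under 0.05 in edgeR.

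The strongest fall among the 5 was that of si:dkey-239j18.2, which averaged 1.45 ± 0.889 CPM in mut48 and 253 ± 99.9 CPM in mut24, and 0.765 ± 0.270 CPM in sib48 and 139.9 ± 105 CPM in sib24 (SD, n = 4 each). Its log2 fold change was -7.45 in mutants (edgeR adjusted p = 5.21e-08) and -7.49 in wild type (adjusted p = 8.65e-08). In mutants the change was -2.59 for si:dkey-269i1.3, -3.47 for si:dkey-269i1.4, -4.63 for si:dkey-26g8.5 and -4.48 for zgc:174153. In wild type it was -2.50, -2.96, -5.41 and -5.16 for the same genes in the same order. As with the members, the library sib24 replicate 1 was low, and the next lowest sib24 library stood 4.42-fold to 8.996-fold above it for these 5 genes.

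Of the 5 cathepsin L-like genes, si:dkey-26g8.5 came nearest to a genotype difference. It averaged 10.9 ± 8.37 CPM in mut48 and 3.51 ± 2.43 CPM in sib48 (SD, n = 4 each), with overlapping libraries and a log2 fold change of 1.62 (95% interval 0.13 to 3.12, edgeR adjusted p = 0.183). For zgc:174153 it was 1.56 (-0.05 to 3.16, edgeR adjusted p = 0.242), at 7.90 ± 6.42 CPM in mut48 and 2.65 ± 1.60 CPM in sib48.

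Genes known to specify the gland or to serve its secretion were a list of 11, all tested. For none of the 11 was it measured whether the reads came from gland cells. With age, 4 of 11 were called higher and 5 lower in mutants, and 5 higher and 3 lower in wild type, against 34.1% higher and 30.4% lower of all tested genes in mutants and 34.1% and 29.2% in wild type. The median log2 fold change of the list was -0.02 in mutants and 0.22 in wild type, against 0.05 and 0.06 over all tested genes. Calls in the 2 directions were thus about equally frequent in the list.

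The transcription factor gene prdm1a, which is needed for the gland to form, fell with age. It averaged 21.6 ± 3.05 CPM in mut48 and 45.8 ± 5.66 CPM in mut24 (SD, n = 4 each, log2 fold change -1.08, edgeR adjusted p = 7.66e-08), and 24.7 ± 1.70 CPM in sib48 and 39.2 ± 3.25 CPM in sib24 (-0.66, adjusted p = 3.03e-05). The bHLH factor gene bhlha15, a regulator of secretory cells, also fell, but its level was low at both ages. It averaged 0.273 ± 0.0941 CPM in mut48 and 1.29 ± 0.343 CPM in mut24 (log2 fold change -2.23, edgeR adjusted p = 0.00126). In wild type it averaged 0.110 ± 0.0465 CPM in sib48 and 0.681 ± 0.509 CPM in sib24 (-2.61, edgeR adjusted p = 0.000775). The endoplasmic reticulum factor gene xbp1, which acts in secretory cells, was at 300.4 ± 61.0 CPM in mut48 and 305 ± 23.7 CPM in mut24 and was not called (log2 fold change -0.02, 95% interval -0.25 to 0.21, edgeR adjusted p = 0.861). The cd63 gene was not called with age either (log2 fold change 0.14 in mutants, edgeR adjusted p = 0.347, and 0.22 in wild type, adjusted p = 0.160).

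The prechordal plate gene gsc rose with age, to 8.64 ± 1.35 CPM in mut48 against 0.146 ± 0.0501 CPM in mut24 and to 8.70 ± 1.74 CPM in sib48 against 0.248 ± 0.138 CPM in sib24 (SD, n = 4 each). The log2 fold change was 5.84 in mutants (edgeR adjusted p = 9.25e-11) and 5.12 in wild type (adjusted p = 2.69e-10). The forkhead gene foxa2 fell by 0.46 on the log2 scale in both genotypes (edgeR adjusted p = 0.0100 in mutants and 0.00998 in wild type), and foxa3 fell by 0.68 in mutants (adjusted p = 0.0201). The foxa3 call was lost without mut24 replicate 1 (-0.51, edgeR adjusted p = 0.0825) and without mut48 replicate 3 (-0.52, adjusted p = 0.0600), and in wild type its change was -0.39 (adjusted p = 0.170). The stress-sensing factor genes creb3l1 and creb3l2 rose by 0.54 and 0.34 in mutants and by 0.57 and 0.34 in wild type (edgeR adjusted p = 0.00538 at most). Without the 4 libraries lowest in yolk genes the calls of foxa2 and creb3l1 were lost in both genotypes and that of creb3l2 in wild type (edgeR adjusted p from 0.0504 to 0.130).

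By genotype, 2 of the 11 were called at 48 hpf and both were lower in mutants, where 4.59% of all tested genes were called lower. Both encode protein disulphide isomerases of the secretory pathway, agr2 and agr1, and agr1 also stood on the list of epidermis genes. The agr2 transcript ran from 27.0 to 41.7 CPM with a mean of 36.5 ± 6.81 in mut48 and from 60.2 to 80.0 CPM with a mean of 72.8 ± 9.22 in sib48 (SD, n = 4 each). The groups did not overlap (log2 fold change -0.998, 95% interval -1.40 to -0.59, edgeR adjusted p = 0.00546), and the call held under all 26 alternatives.

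The agr1 transcript averaged 70.2 ± 6.65 CPM in mut48 and 109 ± 9.60 CPM in sib48 (log2 fold change -0.63, 95% interval -0.98 to -0.29, edgeR adjusted p = 0.0263). This call was lost without mut48 replicate 1, 3 or 4 or sib48 replicate 2, 3 or 4 (edgeR adjusted p up to 0.0830). At 24 hpf agr1 averaged 116 ± 20.2 CPM in mut24 and 71.4 ± 22.0 CPM in sib24 (log2 fold change 0.70, edgeR adjusted p = 0.0518), just short of a call. Its interaction of genotype and age was called (-1.34, edgeR adjusted p = 0.0125), as was that of agr2 (-1.19, adjusted p = 0.0460), which was lost under 15 of 25 alternatives (adjusted p up to 0.0924). None of the 11 was called at 24 hpf by edgeR, though DESeq2 called agr1, and 3 were under 0.05 in edgeR before adjustment. With age, agr1 fell in mutants (log2 fold change -0.73, edgeR adjusted p = 0.000790) and rose in wild type (0.61, adjusted p = 0.00346). The agr2 transcript rose in mutants (0.70, edgeR adjusted p = 0.00434) and in wild type (1.89, adjusted p = 1.85e-07). Without the 4 libraries lowest in yolk genes, the call of agr1 in wild type was lost (edgeR adjusted p = 0.157), as was that of agr2 in mutants (0.0955). Whether the agr1 and agr2 reads came from gland cells was not measured.

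**Figure D5:**
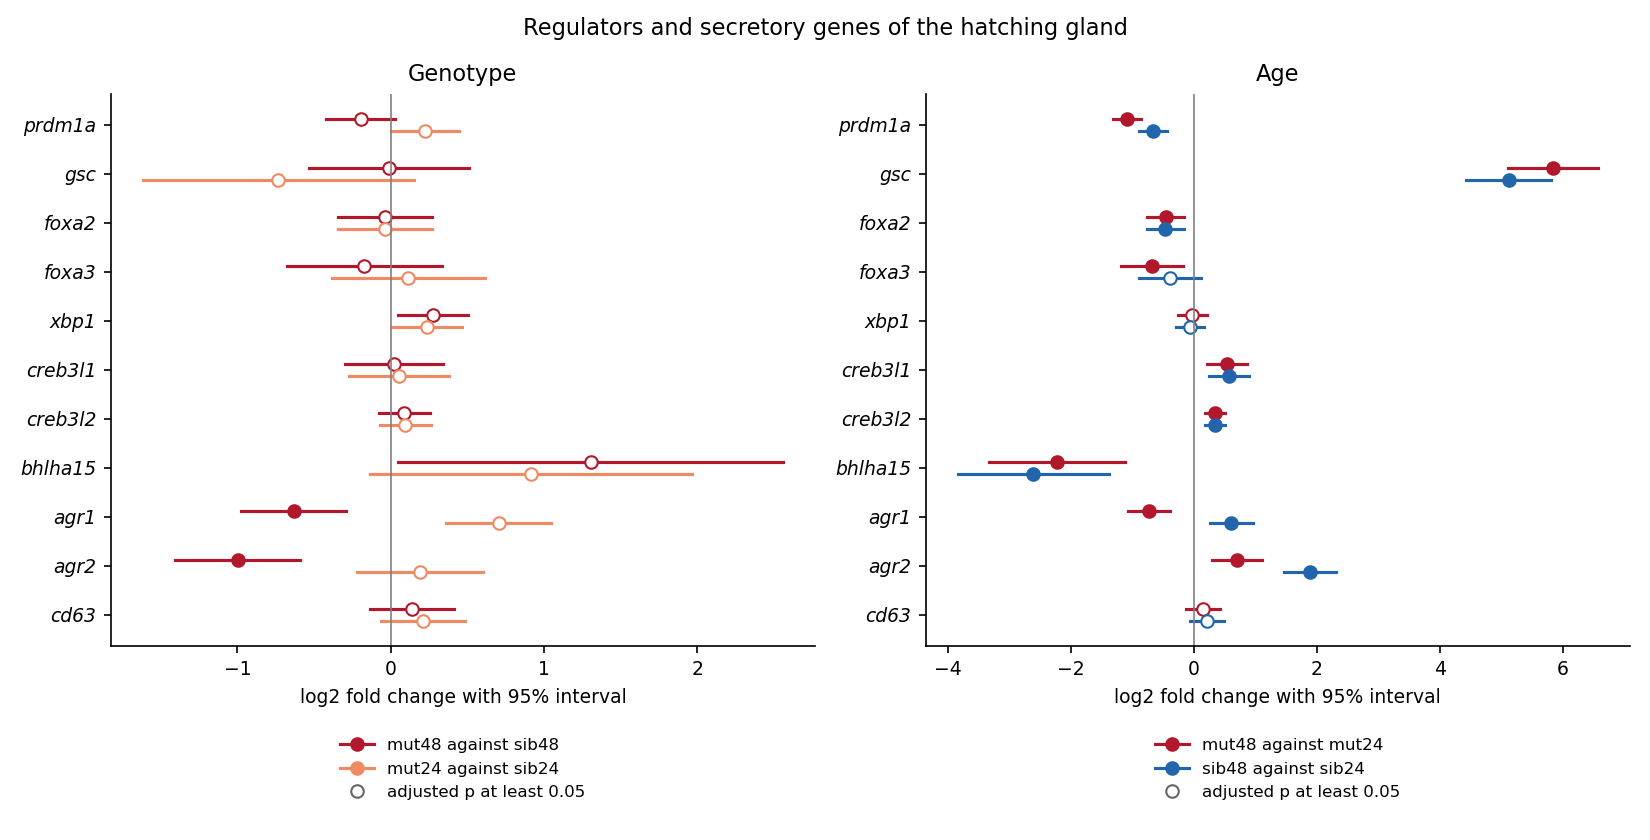
Log2 fold changes with 95% intervals of 11 regulators and secretory genes of the gland, by genotype (left panel, mut48 against sib48 and mut24 against sib24) and by age (right panel, mut48 against mut24 and sib48 against sib24); filled points have an adjusted p under 0.05. By genotype, agr1 and agr2 are filled, at -0.63 and -0.998 in mut48 against sib48, and by age gsc lies far to the right at 5.84 in mutants and 5.12 in wild type.

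Other members of the protease and factor families gave a frame for the 5 genes. Of 6 other astacin family genes tested, 3 were called higher and 1 lower with age in each genotype, where 34.1% of all tested genes were called higher in each genotype, and 30.4% lower in mutants and 29.2% lower in wild type. The gene npsn, nephrosin, an astacin of neutrophils, rose to 16.8 ± 5.68 CPM in mut48 against 0.917 ± 0.417 CPM in mut24 and to 14.7 ± 1.90 CPM in sib48 against 1.24 ± 0.247 CPM in sib24 (SD, n = 4 each), the opposite direction to the hatching enzymes (edgeR adjusted p = 5.33e-10 in mutants and 3.40e-09 in wild type). By genotype, tll1, a tolloid protease that cleaves Chordin, was called higher in mut48, at 18.5 ± 1.27 CPM, than in sib48, at 14.6 ± 0.581 CPM (log2 fold change 0.34, edgeR adjusted p = 0.0393). This call was lost under 8 of 26 alternatives, with adjusted p up to 0.105.

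Of 14 other cathepsin genes tested, 6 were called higher and none lower in mut48 against sib48, where 2.84% of all tested genes were called higher. None was called at 24 hpf by edgeR or DESeq2, where 1 had an unadjusted p under 0.05 in edgeR. The median log2 fold change of the 14 at 48 hpf was 0.66, against -0.04 over all tested genes. The lysosomal genes ctsz, ctsa and ctsd had the smallest p. They averaged 33.9 ± 4.33, 44.4 ± 4.57 and 175 ± 23.7 CPM in mut48 and 20.3 ± 1.71, 27.9 ± 2.97 and 116 ± 6.62 CPM in sib48 (SD, n = 4 each), with log2 fold changes of 0.74, 0.67 and 0.59 (edgeR adjusted p = 0.00396 at most). The interval of ctslb at 48 hpf, -0.88 to 2.16, included both 0 and these values.

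Of 22 other Krüppel-like factor genes tested, 3 were called higher and 2 lower in mut48 against sib48, where 2.84% of all tested genes were called higher and 4.59% lower. The 2 lower were klf11b, at 3.89 ± 0.553 CPM in mut48 and 17.5 ± 0.791 CPM in sib48 (log2 fold change -2.17, edgeR adjusted p = 1.11e-07), and klf11a, at 10.8 ± 4.28 CPM in mut48 and 53.4 ± 4.78 CPM in sib48 (-2.31, adjusted p = 7.23e-06). At 24 hpf, where 0.831% of all tested genes were called, klf5a was the only one of the 22 called by edgeR. It stood at 38.2 ± 2.30 CPM in mut24 and 21.1 ± 3.46 CPM in sib24 (log2 fold change 0.86, edgeR adjusted p = 0.00384). That call was lost without the 4 libraries lowest in yolk genes (log2 fold change 0.67, edgeR adjusted p = 0.105), a fit with fewer libraries of 24 hpf in each genotype.

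A list of 7 tested genes for prolactin, its receptors and the catecholamine system, which have been linked to hatching in fish, held 1 gene called by genotype at 48 hpf, where 7.43% of all tested genes were called. The pituitary hormone gene prl was higher in mut48, at 9.72 ± 1.12 CPM, than in sib48, at 5.38 ± 0.815 CPM (SD, n = 4 each, log2 fold change 0.85, edgeR adjusted p = 0.0165), and the call was lost without sib48 replicate 4 (adjusted p = 0.0532). None of the 7 was called at 24 hpf by edgeR or DESeq2, and 1 had an unadjusted p under 0.05 in edgeR. With age 4 of the 7 were called higher in mutants and 5 in wild type, and none lower, where 34.1% of all tested genes were called higher in each genotype. The log2 fold change of prl was 3.29 in mut48 against mut24 (edgeR adjusted p = 5.93e-10) and 2.28 in sib48 against sib24 (adjusted p = 6.12e-08), and that of the dopamine receptor gene drd2a was 2.52 in mutants (edgeR adjusted p = 3.19e-08) and 2.51 in wild type (adjusted p = 4.55e-08). The interaction of prl was 1.02 and was not called by edgeR (adjusted p = 0.103), though DESeq2 called it.

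Because klf17 is also known in primitive red cells, 10 genes of those cells were measured beside it. None was called by genotype at either age by edgeR or DESeq2, with 2 at 48 hpf and 4 at 24 hpf at an unadjusted p under 0.05 in edgeR. By edgeR, 7.43% of all tested genes were called by genotype at 48 hpf and 0.831% at 24 hpf. With age 4 were called higher and 4 lower in mutants, and 3 higher and 4 lower in wild type, where 34.1% of all tested genes were called higher in each genotype, and 30.4% lower in mutants and 29.2% lower in wild type. The erythroid factor gene gata1a fell, to 2.48 ± 0.730 CPM in mut48 against 16.9 ± 0.636 CPM in mut24 and to 3.04 ± 0.322 CPM in sib48 against 12.4 ± 2.24 CPM in sib24 (SD, n = 4 each, log2 fold change -2.77, edgeR adjusted p = 5.95e-10, in mutants and -2.03, adjusted p = 3.01e-08, in wild type). The globin gene hbae3 rose, by 1.08 on the log2 scale in mutants and by 0.69 in wild type (edgeR adjusted p = 0.000186 at most). The summed level of the 10 genes ran from 1547 to 2513 CPM in mut48, 1816 to 2159 in sib48, 985 to 1191 in mut24 and 1064 to 1456 in sib24, and none of the 10 was at 0 in a group. The share of klf17 reads that came from red cells was not tested.

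Markers of other tissues were measured for the same libraries. Of 13 epidermis genes, 1 was called lower in mut48 against sib48, agr1 itself, where 4.59% of tested genes were called lower. In mut24 against sib24, 3 were called higher, krt5, cyt1l and cyt1, where 0.391% of tested genes were called higher. Of 26 alternatives, 13 ended the call of cyt1 (edgeR adjusted p up to 0.313), 5 that of cyt1l and 1 that of krt5 (0.0638, without the 4 libraries lowest in yolk genes), while DESeq2 called 7 of the 13 genes at 24 hpf. The summed level of the 13 ran from 18631 to 20733 CPM in mut48, 16521 to 18142 in sib48, 17449 to 24646 in mut24 and 9834 to 16586 in sib24. Its part in the agr1 values was not tested. Of 12 muscle genes, acta1b was called lower in mut48 and pvalb1 and pvalb2 were called lower in mut24. In edgeR, 6 of the 12 had an unadjusted p under 0.05 at 24 hpf and 3 at 48 hpf. The log2 fold changes of all 12 in mut24 against sib24 ran from -0.99 to -0.11. Of 17 yolk genes, apoa4b.2 was called lower in mut48 by edgeR. Of all tested genes, 4.59% were called lower at 48 hpf, so 1 call in such a list says little about the tissue. At 24 hpf 0.831% of all tested genes were called in either direction. The pvalb2 call was lost without the 4 libraries lowest in yolk genes (edgeR adjusted p = 0.0818), and that of apoa4b.2 without mut48 replicate 1, 2 or 4 (adjusted p up to 0.0658). No notochord gene of 8 and no exocrine pancreas gene of 6 was called by genotype in edgeR, and DESeq2 called 2 of the notochord genes at 24 hpf. By edgeR, 7.43% of all tested genes were called by genotype at 48 hpf and 0.831% at 24 hpf. In notochord genes 2 at each age, and in pancreas genes 0 at each age, had an unadjusted p under 0.05 in edgeR.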

How the data were processed

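RNA was measured in 16 libraries, made from total RNA extracted with TRIzol and a VAHTS V8 kit, per the labels, which call the tissue body. The deposited table held raw read counts per gene, whole numbers with no normalization by the authors. FastQC 0.12.1, Trim Galore 0.6.10, STAR 2.7.10b, featureCounts 2.0.6 and the build GRCz11 are named in the submitters' processing notes. The sources used here do not give the annotation, the strand setting or the rule for reads with several matches.

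Genes were filtered with filterByExpr of edgeR 4.0.16 in R 4.3.3, which removed 11809 and left 24300. Counts were scaled by TMM and tested with the two-sided quasi-likelihood F-test over all 16 libraries, with 1 mean per group and Benjamini-Hochberg adjustment over all tested genes. Log2 CPM used a prior count of 2. Standard errors were derived from the log2 fold change and the F statistic of the test, and 95% intervals from them with a t distribution. The intervals are thus symmetric on the log2 scale and approximate. Intervals of single counts were not used, since the error was the spread between libraries within groups, estimated jointly over all 16 libraries. Precision was lower for transcripts with few counts, such as he1.3 at 48 hpf. No 2 libraries had more than 3.107% identical counts. The fit was tested on simulated data. Library positions and yolk levels were compared with exact permutation tests, two-sided, of all 70 splits, with 0.0286 as the smallest p. Fewer splits were available where a library of the groups compared was left out. A permutation test had been planned for the share of counts from the members and is not given, so those shares are values only.

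Members and gene lists were chosen with earlier results of these data known. Named genes were all members, all gland regulators tested, and the genes most like the members among genes averaging 1 CPM or more. From the other lists, genes were named mostly among the up to 3 called genes of smallest p per list and contrast. The cathepsin L-like genes were added after their values were seen. List entries without a match were not used here. Alternatives were scaling by RLE or by upper quartiles, no filter or at least 1 CPM in 4 libraries, only the groups compared, a replicate block, DESeq2 1.42.0, summed he1 genes, the yolk level as a covariate, leaving out the 4 libraries lowest in yolk genes, and leaving out each library.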

Additional observations from a re-analysis of the deposited data

Results flagged for a closer look

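Among 52 groups of 4 libraries examined, 2 held a library far from the other 3, and chance alone flags about 1 in 20 groups. The ctslb transcript in mut48 replicate 1 stood at 5.44 CPM, from 238 counts, above 1.74, 1.12 and 1.63 CPM in the other mut48 libraries. Without this library the log2 fold change of ctslb in mut48 against sib48 was -0.0866. The count ratio of he1.1 to he1.3 in mut48 replicate 4 was 1421, against 275 as the lowest of that group, at 6 counts of he1.3.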

How the results depend on the processing

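No genotype difference or interaction of a member was called under any alternative run. For sib48 against sib24, a fit of only the groups compared gave -1.59 for he1.1 and -1.63 for he1.2 and left 3 members called lower. The labels do not say whether equal replicate numbers mark paired libraries. Deviations of same-numbered libraries from their group means correlated by -0.107 to 0.203. Between differently numbered libraries of mut24 and sib24 they correlated by -0.261 to 0.245. Such values cannot decide whether libraries shared a clutch or a preparation. With the replicate number as a block he1.1 in sib48 against sib24 was at -1.58 (edgeR adjusted p = 0.0548), and 4 members remained called. Summing the he1 genes gave 3 members called lower in both genotypes, because 3 genes had become 1, and set the interaction of he1.3 to that of the sum, -0.70.

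Leaving out each library in turn moved the log2 fold change in mut48 against sib48 between -0.22 and 0.61 for he1.1, -0.24 and 0.63 for he1.2 and -0.0866 and 0.90 for ctslb. In sib48 against sib24 it ran from -2.10 to -1.12 for he1.1 and from -2.18 to -1.15 for he1.2, with 3 to 5 members called lower. The interaction ran from -0.40 to 0.32 for he1.3, -0.94 to 0.15 for ctslb and -0.0285 to 0.22 for klf17. The 24 hpf difference in library position ran from -0.0568 to -0.0167 (exact permutation p = 0.0286 without sib24 replicate 4). The yolk difference ran from -1.31 to 0.272 at 24 hpf and from -0.753 to -0.533 at 48 hpf, where the exact permutation p was 0.0571 without any 1 of the mut48 libraries. The cause of these shifts was not tested. Of 114 calls on other genes that were run under the alternatives, 25 were lost under at least 1 and none reversed. The calls of cdx4 and hbae3 were not among those run. At 48 hpf the 6 to 29 counts of he1.3 limit its precision.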
